A study of Mus musculus with 4 samples.

Results

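Sub1 CUT&Tag in mouse leukemia stem cells (LSCs) and hematopoietic stem cells (HSCs) left 3506 places that lie inside the body of a protein-coding gene, over 1 kb from both ends of every protein-coding gene, and hold a peak in all 4 libraries. They were found by merging the peaks of the 4 deposited lists wherever they overlapped by 1 bp or more, which gave 285131 union regions on the main chromosomes. The 3506 shared intragenic regions are 1.23% of these, and 22.9% of the 15337 regions with a peak in every library. Of the other shared regions, 9499 lie at a gene end and 2332 outside protein-coding genes. Presence of a peak in every library chose the regions, so presence itself is description here. Rank, summit position, internal annotated starts and base composition were not part of the choice. Length was in part, since the whole merged region had to clear the gene ends: 4278 regions met the rule when placed by their summits.

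LSCs were sorted from bone marrow of Nup214fl/+ mice with MLL-AF9-driven disease as c-Kit+ cells without lineage markers or Sca-1 that carried both CD34 and CD16/32. HSCs were sorted from bone marrow of Nup214fl/+ mice as CD48-, CD150+ cells of the LSK fraction (Lin-, Sca-1+, c-Kit+). Donors of both groups thus had 1 floxed and 1 intact copy of Nup214, a nuclear pore gene, and each group has 2 libraries. MLL-AF9 is a fusion oncogene that turns myeloid progenitors leukemic, and the labels do not say how it was introduced. The label for cell type is hematopoietic stem cell in LSC samples too, so the groups rest on the sample titles and the sorting scheme. Cell numbers are stated for HSCs alone. Sub1 as the target is taken from the labels, and the names of the peaks in every list begin with H4-Cut, a prefix left unexplained there. Whether the 2 libraries of each group are from different mice is not stated, so p-values measure only the spread between these libraries, which may be technical.

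Sub1, also called PC4, is a small nuclear protein that binds DNA and acts as a cofactor of transcription by RNA polymerase II. In CUT&Tag an antibody brings a transposase to chromatin, and the DNA it cuts marks where the target, or open chromatin near it, lies. Sites deep inside genes are of several kinds: many genes start transcripts from internal promoters, and introns of blood genes hold enhancers that drive the gene or a neighbour. Gene extents in the annotation cover all transcript models of a gene, so a region far from both outer ends can still sit on an annotated transcript start.

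The sequences at such internal starts carry much of what follows, and a few are shown here. Each is the RefSeq GRCm38.p6 (mm10) window of 250 bases before and 50 bases after an annotated start, 5′ to 3′ on the gene's strand, with every CG pair in capitals. Sptbn1 gives 1 start inside the leading shared intragenic region (chr11:30198208-30198507, minus strand) and 1 start farther upstream that lay under no peak in any library (chr11:30219723-30220022, minus strand). Runx3 (chr4:135152295-135152594, plus strand) has the most CG pairs of the leading starts. Erg (chr16:95459299-95459598, minus strand), Pdss2 (chr10:43221236-43221535, plus strand) and Nacc2 (chr2:26092347-26092646, minus strand) show a stem cell factor, a coenzyme Q gene and a start whose region ranked higher in LSCs.
Sptbn1 start in the shared region: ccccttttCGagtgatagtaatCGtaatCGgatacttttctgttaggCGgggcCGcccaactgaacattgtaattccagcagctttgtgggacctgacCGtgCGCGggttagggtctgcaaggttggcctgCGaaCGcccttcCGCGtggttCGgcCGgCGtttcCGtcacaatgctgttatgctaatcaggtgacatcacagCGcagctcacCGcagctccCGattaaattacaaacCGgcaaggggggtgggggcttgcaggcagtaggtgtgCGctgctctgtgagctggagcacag
Sptbn1 start under no peak: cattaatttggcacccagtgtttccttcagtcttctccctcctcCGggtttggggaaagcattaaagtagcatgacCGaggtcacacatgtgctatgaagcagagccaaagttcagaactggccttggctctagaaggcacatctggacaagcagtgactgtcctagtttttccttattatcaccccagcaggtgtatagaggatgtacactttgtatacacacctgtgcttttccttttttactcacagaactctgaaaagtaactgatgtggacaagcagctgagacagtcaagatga
Runx3 start: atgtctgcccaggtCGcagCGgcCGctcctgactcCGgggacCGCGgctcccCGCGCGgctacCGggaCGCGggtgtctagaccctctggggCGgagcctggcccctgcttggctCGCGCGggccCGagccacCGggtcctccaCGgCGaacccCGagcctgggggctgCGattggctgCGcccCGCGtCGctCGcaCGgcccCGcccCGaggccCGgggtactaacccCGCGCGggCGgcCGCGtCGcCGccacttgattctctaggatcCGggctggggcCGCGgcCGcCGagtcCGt
Erg start: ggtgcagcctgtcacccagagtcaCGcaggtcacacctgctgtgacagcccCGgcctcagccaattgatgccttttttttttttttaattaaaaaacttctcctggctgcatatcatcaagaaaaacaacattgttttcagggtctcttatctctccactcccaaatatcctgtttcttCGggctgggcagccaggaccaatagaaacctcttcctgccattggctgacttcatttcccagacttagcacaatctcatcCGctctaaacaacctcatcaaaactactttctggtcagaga
Pdss2 start: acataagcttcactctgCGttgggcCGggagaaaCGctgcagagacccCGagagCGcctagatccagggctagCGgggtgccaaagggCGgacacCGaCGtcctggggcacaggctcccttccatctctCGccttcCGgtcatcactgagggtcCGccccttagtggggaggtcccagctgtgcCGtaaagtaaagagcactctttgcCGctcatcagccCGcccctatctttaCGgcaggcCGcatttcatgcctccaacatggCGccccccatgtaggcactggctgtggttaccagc
Nacc2 start: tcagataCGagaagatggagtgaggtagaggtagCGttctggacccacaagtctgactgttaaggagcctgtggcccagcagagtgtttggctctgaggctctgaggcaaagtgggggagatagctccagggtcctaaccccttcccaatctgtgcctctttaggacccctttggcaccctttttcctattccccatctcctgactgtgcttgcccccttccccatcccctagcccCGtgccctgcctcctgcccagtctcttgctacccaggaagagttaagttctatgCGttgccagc

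The Sptbn1 window in the shared region holds 21 CG pairs, against 2 in the Sptbn1 window under no peak. The Runx3 window holds 45, the Pdss2 window 18, and the Erg and Nacc2 windows 4 each. Shared intragenic regions thus lie on CG-rich and on CG-poor starts. The Pdss2 window also holds the ETS core CCGGAA, the GC box GGGCGG and the RUNX core TGTGGT, each searched on both strands, and none of these letters occurs in the Erg or Nacc2 window.

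The 4 lists differ much in length. LSC 1 and LSC 2 had 41097 and 34185 deposited peaks, and HSC 1 and HSC 2 had 115881 and 235680. The steps between the authors' fold values gave a background of 4.54 and 4.50 reads per position in the LSC libraries and 3.07 and 7.47 in the HSC libraries. That is the only measure of depth the files hold, and it does not follow the number of peaks. None of the 31 marker genes of stem, progenitor and mature blood cells hosts a shared intragenic region. Of the HSC markers, Ly6a (Sca-1) had 0 and 0 peaks in the LSC lists and 4 and 4 in the HSC lists, and Slamf1 (CD150) had 0 and 0 in the LSC lists and 1 and 7 in the HSC lists. Sca-1 was used in both sorts and CD150 in the HSC sort, and the part of sorting, list length and cell type in these counts was not tested.

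Shared intragenic regions made up 30.5% and 39.3% of all intragenic peaks in LSC 1 and LSC 2, and 11.4% and 4.71% in HSC 1 and HSC 2. The list lengths alone move these shares, so they are description. With every list shortened to the length of the shortest, there were 1815 shared intragenic regions. Within a library, the strength of a region was taken as the highest fold among its peaks. This fold is the authors' own value, summit pileup over background, and serves here only to rank regions inside 1 library. The median was 13.3 and 9.45 in LSC 1 and LSC 2 and 11.5 and 14.9 in HSC 1 and HSC 2. Since all 15337 shared regions are present in every library, each was given its percentile among them, and percentiles are what the libraries are compared on.

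Shared intragenic regions ranked low among shared regions. Their median percentile was 24.0 and 23.8 in LSC 1 and LSC 2 and 26.9 and 28.4 in HSC 1 and HSC 2. The LSC mean was 23.9 ± 0.148 and the HSC mean 27.6 ± 1.03 (SD, n = 2 each), a difference of -3.71 percentile points (exact permutation test over 6 assignments, two-sided p = 0.33, the smallest that 2 libraries against 2 allow). Both LSC libraries lay below both HSC libraries. Without LSC 1, and with regions shared by the other 3 libraries, the difference was -1.75 points (exact permutation p = 0.667, against a smallest possible p of 0.33). Against shared regions at gene ends, the difference was -42.0, -42.0, -38.6 and -36.6 points in LSC 1, LSC 2, HSC 1 and HSC 2 (exact sign-change test over 4 libraries, two-sided p = 0.125, the smallest possible). Against shared intergenic regions, the difference was -0.463 and -1.34 points in LSC 1 and LSC 2 and 0.981 and 1.14 points in HSC 1 and HSC 2 (mean 0.0791 ± 1.19, SD over 4 libraries, exact sign-change p = 1). Intragenic and intergenic regions thus differed by little, and not in the same direction in both groups, and leaving out 1 library gave means from -0.802 to -0.401 points. Shared intergenic regions also had both LSC medians, 24.5 and 25.2, below both HSC medians, 25.9 and 27.2. Their LSC minus HSC difference was -1.75 points (exact permutation p = 0.33, the smallest possible). This order is thus not particular to shared intragenic regions.

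Peaks covered a median of 1068.5 and 1220.5 bp of a shared intragenic region in LSC 1 and LSC 2 and 1170.5 and 1511 bp in HSC 1 and HSC 2. The groups overlapped, with an LSC mean of 1144.5 ± 107 bp and an HSC mean of 1340.75 ± 241 bp (SD, n = 2 each, exact permutation p = 0.667). The difference of -196 bp became 4.25 bp without HSC 2. In shared intergenic regions the difference over all libraries was -166 bp. HSC 2, with the widest peaks, also has the highest background depth and the longest list.

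The rank of a shared intragenic region went with whether it holds an annotated transcript start. RefSeq start windows allowed 618 regions (17.6%) to be placed on a start of a protein-coding transcript, 78 on a start of a long non-coding RNA alone, and 2210 on no start. For 600 regions the host gene has no window in the table and no statement is made. The median percentile of regions with a coding start was 56.8 and 56.9 in LSC 1 and LSC 2 and 56.1 and 56.9 in HSC 1 and HSC 2. For regions with no start it was 19.1 and 18.8 in LSC 1 and LSC 2 and 23.8 and 23.9 in HSC 1 and HSC 2. The difference was 37.7, 38.1, 32.4 and 33.0 points in LSC 1, LSC 2, HSC 1 and HSC 2, the same way in 4 of 4 libraries (mean 35.3 ± 3.03, SD, exact sign-change p = 0.125, the smallest possible). Regions with a coding start still ranked below gene ends, with differences of -9.23, -8.87, -9.33 and -8.10 points in the same order of libraries (p = 0.125 by the same exact test). Regions on a long non-coding RNA start alone ranked 14.6, 15.7, 6.16 and 14.1 points above those with no start.

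**Figure D1:**
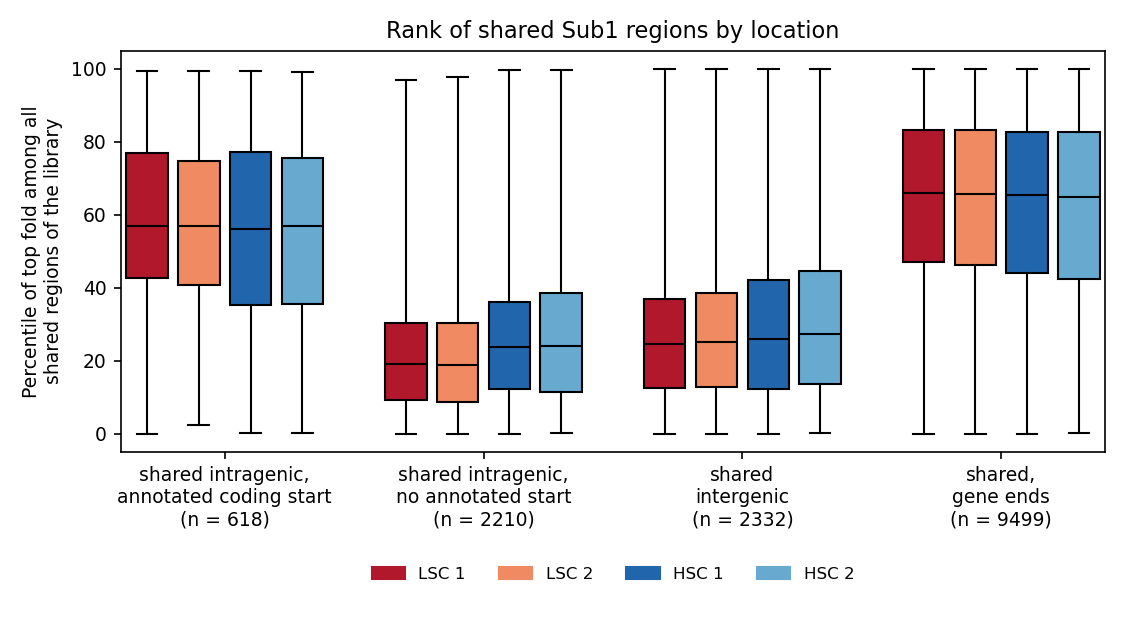
Percentile of the authors' top fold among the 15337 shared regions, per library (LSC 1, LSC 2, HSC 1, HSC 2 from left to right), for shared intragenic regions with a coding start (n = 618), with no annotated start (n = 2210), shared intergenic regions (n = 2332) and shared gene-end regions (n = 9499). Boxes span the quartiles with the median as a line and whiskers reach the lowest and highest region. Medians of regions with a start lie between 56.1 and 56.9 in all 4 libraries, those without near 19 in LSCs and near 24 in HSCs. Regions with a coding start are wider than those with no start, and the sets were not matched for width.

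The gap between regions with and without a coding start was wider in LSCs, at 37.9 ± 0.263 points, than in HSCs, at 32.7 ± 0.438 (SD, n = 2 each). The 2 groups did not overlap, and the difference was 5.23 points (exact permutation p = 0.33, the smallest possible). It came from the regions with no start, whose LSC mean of 19.0 differed by -4.86 points from their HSC mean of 23.8. Regions with a coding start had an LSC mean of 56.9 and an HSC mean of 56.5, with the groups overlapping (exact permutation p = 0.667).

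The 10 regions that ranked highest in their weakest library include regions in genes of blood cell identity and of the cytoskeleton. The region in Sptbn1, which encodes non-erythroid beta-spectrin, spans chr11:30192833-30199691, 68693 bp from the nearest gene end. Its fold was 314 and 263 in LSC 1 and LSC 2 and 77.6 and 114 in HSC 1 and HSC 2, and its percentile lay between 98.8 and 99.5 in all 4. The region in Runx3, a RUNX transcription factor of lymphoid and myeloid cells known to have a distal and a proximal promoter, spans chr4:135148950-135155564. Its fold was 348 and 258 in LSC 1 and LSC 2 and 83.8 and 109 in HSC 1 and HSC 2, and its percentile was between 98.6 and 99.5. The region in Spi1, which encodes PU.1, the ETS factor of myeloid and B cell development, spans chr2:91094356-91101237 and had a fold of 237 and 220 in LSC 1 and LSC 2 and 70.5 and 125 in HSC 1 and HSC 2. These 3 stood near the top of every library, with LSC minus HSC differences of 0.50, 0.55 and -1.42 percentile points.

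The others of the 10 lie in Sp140 and Sp110, nuclear body genes that share 1 region, in Hexim2, an inhibitor of the elongation kinase P-TEFb, and in Triobp, which binds actin. They lie further in Lrrfip1, in Atp8b4, of the phospholipid flippase family, in Idh1, the cytosolic isocitrate dehydrogenase, and in Mad2l2, a subunit of translesion polymerase zeta. Their percentiles ranged from 93.3 to 99.3. Of the 10, 8 hold an annotated coding start and the hosts of the other 2, Hexim2 and Spi1, have no window in the start table. The region in Mad2l2 had the largest difference between the groups of the 10, with percentiles of 99.1 and 99.3 in LSC 1 and LSC 2 and 97.6 and 93.3 in HSC 1 and HSC 2.

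A start held by a shared region was not always under a peak. In the 618 regions lie 754 coding starts, of which 94.3% and 89.7% were under a peak in LSC 1 and LSC 2 and 80.5% and 79.6% in HSC 1 and HSC 2. Starts that fell in a gap between 2 peaks of the same region made up 0.398% and 4.64% in LSC 1 and LSC 2 and 9.28% and 11.8% in HSC 1 and HSC 2. Runx3 is such a case. Its start lay under the peak of LSC 1, while in LSC 2 it stood 121 and 350 bp from the peaks on its lower and higher sides, in HSC 1 23 and 317 bp, and in HSC 2 315 and 350 bp. The Erg start lay under a peak in LSC 1, LSC 2 and HSC 2, and in HSC 1 fell 41 and 195 bp from the neighbouring peaks.

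Summits lay mostly downstream of the start. The strongest summit of a region with a coding start was within 500 bp of the nearest start in 74.9% and 70.1% of regions in LSC 1 and LSC 2 and in 66.7% and 60.4% in HSC 1 and HSC 2. It was downstream of that start in 80.9% and 77.7% in the LSC libraries and in 77.2% and 72.2% in the HSC libraries. The median position was 207 and 228.5 bp downstream in LSC 1 and LSC 2 and 195 and 264 bp in HSC 1 and HSC 2.

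Libraries placed the summits of a shared intragenic region close together, and LSC libraries closest. The median distance between strongest summits was 182 bp between the LSC libraries, 345 bp between the HSC libraries and 254 to 312.5 bp between an LSC and an HSC library. With a coding start it was 113.5 bp between the LSC libraries and 237.5 bp between the HSC libraries, and with no start 210 and 374 bp for the same pairs. Percentiles behaved likewise: across the 3506 regions Pearson's r was 0.914 between the LSC libraries, 0.754 between the HSC libraries and 0.669 to 0.725 across groups. These pairs share libraries and regions differ in width, so the values are a description.

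Not every internal start is occupied. Internal refers to the gene's annotated extent, and such a start can be at or near the most upstream one listed. The table holds 3881 coding starts that lie over 1 kb from gene ends and inside a gene. A peak lay over 39.6% and 36.9% of them in LSC 1 and LSC 2 and over 34.9% and 37.9% in HSC 1 and HSC 2. In all 4 libraries it did so for 1060 (27.3%), and in none for 1974 (50.9%). The windows differ in composition: the median number of CG pairs was 17 at the 754 starts in shared intragenic regions, 5 at the 1974 under no peak and 7 in all 32851 windows of coding and long non-coding genes. The median GC content was 59.7%, 51.0% and 52.7% in the same order. The 17382 coding starts within 1 kb of gene ends had a median of 14 CG pairs and a median GC content of 57.0%.

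Short motifs followed the same split. The ETS core CCGGAA, the letters bound by PU.1, Erg and their relatives, was in 22.4% of windows in shared intragenic regions, 6.03% of those under no peak and 14.9% of all windows. The GC box GGGCGG, bound by Sp factors, was in 56.9%, 26.2% and 35.7% in that order, and the CRE core TGACGT in 9.81%, 4.51% and 7.51%. The RUNX core TGTGGT ran the other way, at 13.0%, 18.0% and 16.8%, and so did the TATA letters TATAAA, at 5.84%, 14.5% and 13.6%. The E-box CACGTG was in 7.16%, 3.90% and 7.15%. At coding starts within 1 kb of gene ends the ETS core was in 19.9% of windows, the GC box in 47.9%, the CRE core in 8.92%, the RUNX core in 14.7%, the TATA letters in 13.0% and the E-box in 8.18%. Motifs were searched on both strands of the 300 bases, none of the 6 contains another, and matches of letters rich in C and G move with the CG content given above. A match describes letters and not a bound site.

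For 429 genes an internal start lay under a peak in every library and inside a shared intragenic region. In 239 of them the table gives no start over 2 kb farther upstream, so that start is at or near the most upstream one listed. In the other 190, the most upstream start was also under a peak in all 4 libraries in 61 genes and in none in 63. It was under a peak in LSC 1 and LSC 2 alone in 9 genes (Acyp1, Csrp1, Elf4, Inpp5a, Matk, Psd4, Srpk2, Tef and Wiz) and in HSC 1 and HSC 2 alone in 1, Arhgef2. The remaining 56 had another pattern.

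Runx1, which encodes the RUNX factor that blood stem cells need to form, shows both starts occupied. The fold at its internal start was 237 and 100 in LSC 1 and LSC 2 and 56.0 and 41.3 in HSC 1 and HSC 2. At the upstream start, 128745 bp away, it was 169 and 151 in LSC 1 and LSC 2 and 48.9 and 80.3 in HSC 1 and HSC 2. Idh1 likewise had peaks over both, 7337 bp apart. In Celf2 and Hk1, which encode an RNA-binding splicing factor and hexokinase 1, and in Septin9, a filament-forming GTPase, the upstream start was under no peak, as in Sptbn1. Wiz, a zinc finger partner of the G9a methyltransferase, had a fold of 46.5 and 44.7 at the upstream start in LSC 1 and LSC 2 and no peak there in HSC 1 or HSC 2. At the internal start of Wiz, 19984 bp downstream, the fold was 113 and 60.5 in LSC 1 and LSC 2 and 18.2 and 38.7 in HSC 1 and HSC 2.

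Shared intragenic regions were found in 2561 of 21887 protein-coding genes (11.7%). Of these hosts, 1930 hold 1 region, 424 hold 2 and 207 hold 3 or more. Hosts are long, with a median of 38339 bp against 14862 bp in other genes, and 72.8% of them also have a shared region at a gene end, against 46.0% of other genes. Within each class of length the genes with a shared gene-end region were hosts more often. Among genes of 10 to 30 kb, 19.3% with a shared gene-end region and 6.54% without one were hosts, and among genes of 100 to 300 kb it was 32.2% and 15.7%.

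**Figure D2:**
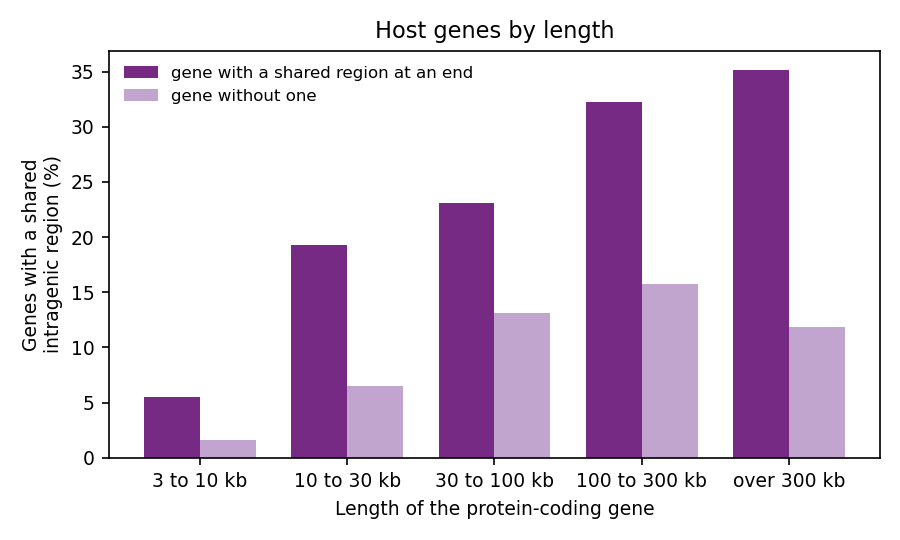
Share of protein-coding genes that hold a shared intragenic region, in percent, by gene length, for genes with a shared region at a gene end (dark) and without one (light). The dark bar is the higher in each of the 5 classes, from 5.55% against 1.59% at 3 to 10 kb to 35.1% against 11.9% over 300 kb; genes under 3 kb held none and are not drawn.

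Shared intragenic regions were densest in the first 10 kb of genes. The median distance to the nearest gene end was 7071.5 bp, with 820 regions over 20 kb and 84 over 100 kb away. Over the 15328 genes whose strand the start table gives, the density was 9.98 regions per Mb of gene body at 1 to 5 kb from the 5′ end, 11.6 at 5 to 10 kb, 6.45 at 10 to 20 kb, 3.51 at 20 to 50 kb, 2.198 at 50 to 100 kb and 0.823 beyond. Counted from the 3′ end it was 5.42, 7.22, 5.95, 4.80, 3.80 and 1.30 per Mb over the same distances. Regions with no annotated start followed the same course from the 5′ end, at 7.59 per Mb at 1 to 5 kb and 0.663 beyond 100 kb. Over all coding genes, density was 10.1 per Mb in genes of 10 to 30 kb and 0.491 in genes over 300 kb. Far distances exist only in long genes, so position and gene length are not separated here. The whole region had to clear 1 kb from gene ends, which keeps its middle from lying just past 1 kb. The values at 1 to 5 kb are thus held down by the rule, by an amount that was not tested. The X chromosome had 0.973 regions per Mb, below the lowest autosome at 1.96.

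**Figure D3:**
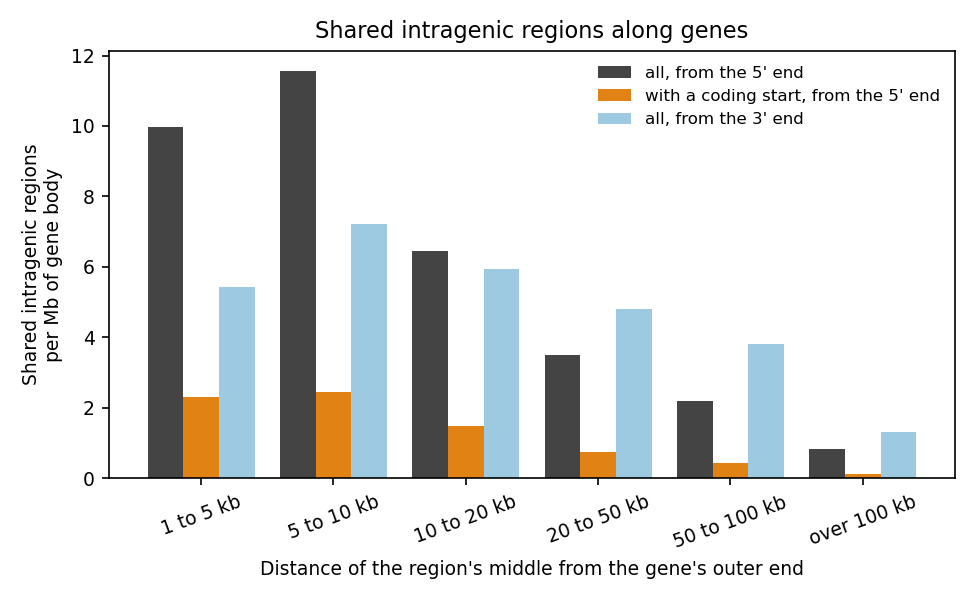
Shared intragenic regions per Mb of gene body by the distance of the region's middle from the gene's outer end: all regions from the 5′ end (dark grey), those with a coding start from the 5′ end (orange) and all regions from the 3′ end (blue). Density from the 5′ end is highest at 5 to 10 kb (11.6 per Mb) and lowest beyond 100 kb (0.823 per Mb). The rule keeps middles from lying just past 1 kb, which holds down the bars at 1 to 5 kb.

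The regions at the 1 kb limit show what the limit divides. Just inside it were regions in Cipc, Pex2 and 3110082I17Rik, at 1001, 1002 and 1004 bp from a gene end. Just outside it were regions at Dpep2, Mtmr2 and Smim41, at 997, 995 and 987 bp. The percentiles in LSC 1, LSC 2, HSC 1 and HSC 2 were 65.5, 78.5, 66.3 and 71.2 in Cipc, inside, and 89.4, 62.7, 71.8 and 44.2 in Mtmr2, outside.

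The 6 genes with the most shared intragenic regions hold 7 to 9 each. Pde4d, a cyclic AMP phosphodiesterase in a gene of 1301793 bp, holds 9, and the tyrosine phosphatase gene Ptpre holds 8. Cdk6 (the cell cycle kinase), Chd9 (a chromatin remodeler), Maml3 (a Notch coactivator) and Pxn (the adhesion adaptor paxillin) hold 7 each. One region in Pde4d is the farthest from any gene end, at 605612 bp. That region spans chr13:109259789-109264452, holds no annotated start and had a fold of 252 and 132 in LSC 1 and LSC 2 and 37.8 and 42.4 in HSC 1 and HSC 2, at percentiles of 97.0 and 88.5 in LSCs and 80.0 and 73.5 in HSCs. It ranked higher in both LSC libraries than in both HSC libraries, by 15.95 points on average, short of the 20 points required for a call below. The other 8 regions in Pde4d had percentiles from 7.64 to 54.4.

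In Cdk6 the 7 regions hold no annotated start and ranked from 1.56 to 73.7. The strongest in LSCs, at chr5:3513465-3518292 near the 3′ end, had a fold of 78.3 and 48.0 in LSC 1 and LSC 2 and 12.0 and 24.4 in HSC 1 and HSC 2. Its percentiles were 55.3 and 54.0 in LSC 1 and LSC 2 and 29.0 and 50.8 in HSC 1 and HSC 2, a difference under 20 points. Another, at chr5:3490517-3492156, had percentiles of 29.4 and 39.8 in LSC 1 and LSC 2 and 36.1 and 73.7 in HSC 1 and HSC 2, so the groups overlapped. In Chd9 the region ranked highest in LSC 1 lay 80279 bp downstream of the 5′ end, with percentiles of 83.4 and 68.4 in LSC 1 and LSC 2 and 79.1 and 68.7 in HSC 1 and HSC 2. In Pxn, 3 of 7 regions ranked higher in both HSC libraries by 20 points or more on average, and none in LSCs. Regions in Ptpre and Maml3 also met this mark in HSCs, and regions in Pde4d and Maml3 in LSCs, with none in Cdk6 or Chd9. Among all shared intragenic regions 13.0% met it in HSCs and 6.79% in LSCs, against 8.82% and 7.67% of all shared regions.

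**Figure D4:**
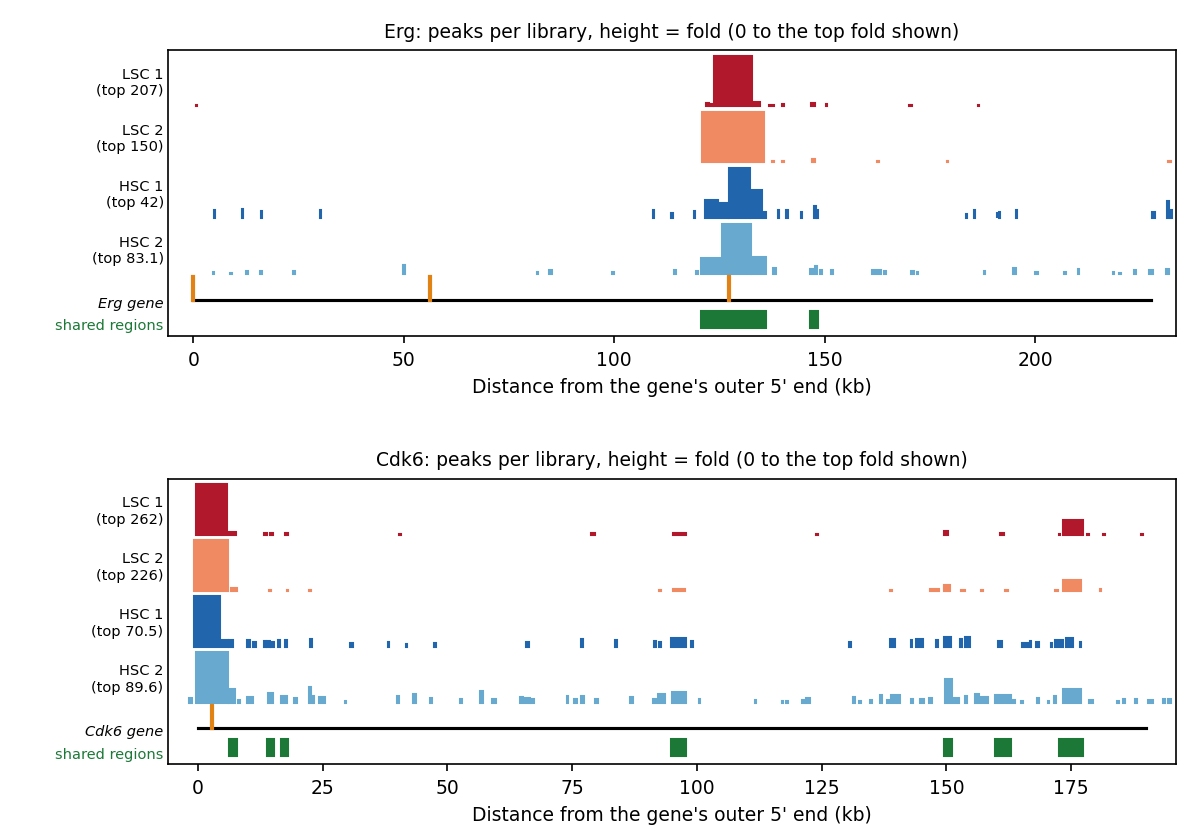
Peaks of each library along Erg and Cdk6, with height showing the authors' fold from 0 to the top fold of that library in the window, distance in kb from the gene's outer 5′ end, annotated starts in orange and shared intragenic regions in green. In Erg the region at 128 kb holds the top fold of every library (207, 150, 42.0 and 83.1 in LSC 1, LSC 2, HSC 1 and HSC 2), and in Cdk6 the tall peaks stand at the gene start while 7 shared regions lie along the body.

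A region was called higher in 1 group when both its libraries ranked above both of the other group and the means were at least 20 percentile points apart. By this rule 238 shared intragenic regions (6.79%) were higher in LSCs, against 7.67% of all 15337 shared regions. Higher in HSCs were 457 (13.0%), against 8.82% of all shared regions. The LSC count was thus near the background and the HSC count above it. Shared intergenic regions gave 7.98% and 15.1%, and gene-end regions 7.92% and 5.73%, for higher in LSCs and higher in HSCs. With 2 libraries a group no single region can pass a test, and these counts have none. Leaving out any 1 library, which makes the rule easier to meet, gave 422 to 570 regions higher in LSCs and 722 to 871 higher in HSCs. The share higher in LSCs was 9.11% against 8.91% of all shared regions without LSC 1, and 10.25% against 10.29% without LSC 2. Without HSC 1 it was 9.99% against 11.8%, and without HSC 2 10.32% against 11.05%. The share higher in HSCs exceeded that of all shared regions each time, with 14.4% against 9.89% without LSC 1 and 18.3% against 12.2% without HSC 1.

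The direction differed with the annotated start. Of regions with a coding start, 64 (10.4%) were higher in LSCs and 37 (5.99%) higher in HSCs. Of regions with no start, 118 (5.34%) were higher in LSCs and 326 (14.8%) higher in HSCs. Regions higher in HSCs were wider, with a median of 2845 bp, against 2043.5 bp for those higher in LSCs and 2133 bp for the rest. In the widest class, 5000 bp or more, 84 of 361 regions (23.3%) were higher in HSCs and 10 (2.77%) in LSCs. Width was measured on merged regions, to which the longer HSC lists add peaks, and its part in the counts was not tested.

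**Figure D5:**
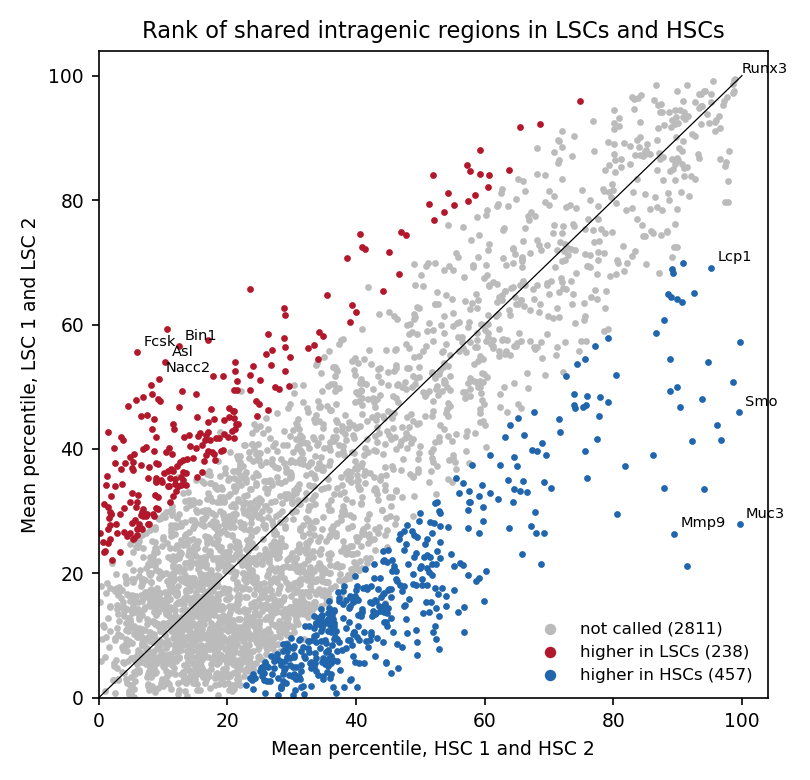
Mean percentile of each of the 3506 shared intragenic regions in the LSC libraries (vertical) against the HSC libraries (horizontal), with regions called higher in LSCs in red (238) and higher in HSCs in blue (457). The line marks equal rank; Muc3, Smo and Mmp9 lie far to the HSC side and Asl, Bin1, Fcsk and Nacc2 to the LSC side, while Runx3 sits at the top right on the line.

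The 6 regions higher in LSCs with the widest gap between the nearest libraries lie in Fcsk, Bin1, Asl, Nacc2, nonagouti (symbol a) and Gm38821. Fcsk encodes fucokinase, of the fucose salvage pathway. Its region, chr8:110893011-110896350, had a fold of 62.9 and 62.0 in LSC 1 and LSC 2 and 5.89 and 8.97 in HSC 1 and HSC 2, and percentiles of 49.6 and 61.6 in LSCs and 2.71 and 9.19 in HSCs. Bin1 encodes a membrane-bending adaptor that also binds Myc. Its region had percentiles of 56.0 and 57.0 in LSC 1 and LSC 2 and 15.4 and 9.47 in HSC 1 and HSC 2. Asl, the argininosuccinate lyase of the urea cycle, had percentiles of 55.1 and 52.8 in LSC 1 and LSC 2 and 11.0 and 9.78 in HSC 1 and HSC 2. In Nacc2, a BTB-domain transcriptional repressor, the region holds the start printed above and had percentiles of 49.5 and 53.1 in LSC 1 and LSC 2 and 8.70 and 10.1 in HSC 1 and HSC 2. All 6 stood at percentiles from 45.7 to 61.6 in the LSC libraries and at 15.4 or lower in the HSC libraries.

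The region named by Gm38821, chr6:51269794-51271608, holds Mir148a. Its fold was 61.5 and 37.4 in LSC 1 and LSC 2 and 7.86 and 6.61 in HSC 1 and HSC 2, with percentiles of 49.0 and 47.8 in LSCs and 9.82 and 3.82 in HSCs. The mature arm miR-148a-3p lies at chr6:51269829-51269850 on the minus strand, and its seed, bases 2 to 8, is in capitals.
mmu-miR-148a-3p: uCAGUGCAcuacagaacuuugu

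In all, 23 shared intragenic regions overlap 24 annotated miRNA genes, and 1 of them, that of Mir148a, ranked higher in LSCs while 4 ranked higher in HSCs. Of all shared intragenic regions, 6.79% ranked higher in LSCs and 13.0% in HSCs. A region in Smc4, a condensin subunit gene, holds Mir15b and Mir16-2, whose 5p arms share a seed, and in human cells the miR-15 and miR-16 family is known to repress BCL2. Its percentiles were 18.7 and 11.8 in LSC 1 and LSC 2 and 17.7 and 8.50 in HSC 1 and HSC 2, so the groups overlapped. The sequences show the shared seed in capitals.
mmu-miR-15b-5p: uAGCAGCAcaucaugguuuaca
mmu-miR-16-5p: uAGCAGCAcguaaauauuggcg

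The 6 regions higher in HSCs with the widest gap lie in Muc3, E030030I06Rik, Cdk8, Ppp1r9a, Smo and Aida, and none holds an annotated start. The region in Muc3, a membrane mucin gene of the gut, spans chr5:137147057-137153128. Its fold was 8.84 and 27.1 in LSC 1 and LSC 2 and 102 and 145 in HSC 1 and HSC 2, with percentiles of 14.3 and 41.6 in LSCs and 99.7 and 99.7 in HSCs. In Smo, the Hedgehog signal transducer, the percentiles were 47.3 and 44.5 in LSC 1 and LSC 2 and 99.6 and 99.4 in HSC 1 and HSC 2. All 6 reached percentiles of 86.0 or higher in both HSC libraries and stayed at 47.3 or lower in both LSC libraries.

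Of these 6, 2 are very narrow and have almost the same extent in each library. The region in Ppp1r9a (neurabin, an actin-binding phosphatase scaffold) is 368 bp wide and was covered over 367, 367, 367 and 368 bp in LSC 1, LSC 2, HSC 1 and HSC 2. Its fold was 33.7 and 31.6 in LSC 1 and LSC 2 and 59.4 and 101 in HSC 1 and HSC 2. The region in Cdk8, a kinase of the Mediator complex, is 378 bp wide and was covered over 313, 360, 378 and 359 bp, with a fold of 17.7 and 21.8 in LSC 1 and LSC 2 and 97.5 and 63.6 in HSC 1 and HSC 2. Only 3 of the 3506 regions are narrower than 500 bp. How uniquely reads map to these places was not tested, since no genome sequence of the regions was used.

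Factors of blood stem cells were hosts often. Of the 7 heptad factors, which bind together at enhancers of blood stem and progenitor cells, 4 are hosts: Erg, Fli1, Lmo2 and Runx1, with 11 regions in all. Their share of 57.1% stands beside 11.7% of all protein-coding genes, and their median length of 23976 bp beside 17169 bp. That median hides long hosts such as Erg, at 227 kb, and of all genes of 100 to 300 kb 23.3% are hosts. The part of length in the share was not tested. Of the 11 regions, 2 were higher in HSCs and none in LSCs. Here and in the lists below, such counts stand beside 6.79% of all shared intragenic regions higher in LSCs and 13.0% higher in HSCs. The counts are small and were not tested. The leading region in Erg, an ETS factor required by HSCs, spans chr16:95450571-95465944. Its fold was 207 and 150 in LSC 1 and LSC 2 and 42.0 and 83.1 in HSC 1 and HSC 2, at percentiles of 92.5 and 92.2 in LSCs and 84.8 and 95.3 in HSCs, so the groups overlapped. The leading region in Lmo2, a bridging factor of these complexes, had percentiles of 82.4 and 92.5 in LSC 1 and LSC 2 and 84.1 and 87.4 in HSC 1 and HSC 2. In Fli1, another ETS factor, 1 of 3 regions was higher in HSCs, with percentiles of 29.8 and 33.1 in LSC 1 and LSC 2 and 49.3 and 66.2 in HSC 1 and HSC 2.

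Of 45 other blood transcription factors, 21 are hosts with 55 regions, of which 4 were higher in LSCs and 10 in HSCs. Of 30 genes known as targets of MLL fusions, 18 are hosts with 42 regions, and 2 were higher in LSCs and 3 in HSCs, where 7.67% and 8.82% of all shared regions were. Both lists hold long genes, with median lengths of 87969 and 140653 bp, and they share members. In Runx2, on both lists, the region chr17:44732963-44737091 had no annotated start and percentiles of 94.1 and 97.8 in LSC 1 and LSC 2 and 87.2 and 94.5 in HSC 1 and HSC 2. In Cpeb2, which encodes a translational regulator, the leading region had percentiles of 74.3 and 75.2 in LSC 1 and LSC 2 and 92.6 and 79.7 in HSC 1 and HSC 2. In Hoxa9, a homeobox gene that MLL fusions sustain, the region had percentiles of 49.5 and 46.8 in LSC 1 and LSC 2 and 38.6 and 46.6 in HSC 1 and HSC 2. In Myb the stronger of its 2 regions had percentiles of 38.7 and 48.4 in LSC 1 and LSC 2 and 36.9 and 43.7 in HSC 1 and HSC 2.

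Of 45 chromatin regulators, 21 are hosts, with 39 regions of which 1 was higher in LSCs and 6 in HSCs. The host share was 46.7%, against 11.7% of all coding genes, and the median length 86134 bp, against 17169 bp. The leading region in Dnmt1, the maintenance DNA methyltransferase, holds a coding start with 33 CG pairs in its window and had percentiles of 94.5 and 96.4 in LSC 1 and LSC 2 and 85.3 and 89.4 in HSC 1 and HSC 2. Arid1b, a subunit of the BAF remodeler, had percentiles of 67.8 and 74.8 in LSC 1 and LSC 2 and 77.6 and 73.7 in HSC 1 and HSC 2.

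Of 47 cytokine receptor and signalling genes, 12 are hosts with 16 regions, 3 higher in HSCs and none in LSCs. The host share was 25.5%, against 11.7% of all coding genes, and the median length 49275 bp, against 17169 bp. Nfatc1, a calcium-regulated transcription factor, led them, with percentiles of 72.3 and 76.6 in LSC 1 and LSC 2 and 87.7 and 87.1 in HSC 1 and HSC 2, a difference under 20 points. Syk, a tyrosine kinase of immune receptors, had percentiles of 35.8 and 39.5 in LSC 1 and LSC 2 and 40.7 and 21.8 in HSC 1 and HSC 2.

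The series title links Nup214 to ferroptosis, cell death by lipid peroxidation. Of 40 ferroptosis and iron genes, 8 are hosts with 12 regions, 1 higher in LSCs and 3 in HSCs. The host share was 20%, against 11.7% of all coding genes, and the median length 26574 bp, against 17169 bp. Pdss2, which makes the tail of coenzyme Q, an antioxidant that protects lipids, holds the region chr10:43220380-43222776 on the start printed above. Its fold was 214 and 139 in LSC 1 and LSC 2 and 40.0 and 82.3 in HSC 1 and HSC 2, and its percentiles were 93.6 and 90.0 in LSCs and 82.7 and 95.1 in HSCs, so the groups overlapped. Por, the cytochrome P450 reductase, had percentiles of 90.0 and 92.3 in LSC 1 and LSC 2 and 97.8 and 93.8 in HSC 1 and HSC 2, so both HSC libraries lay above both LSC libraries (mean difference -4.66 points, LSC minus HSC).

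Steap3, the ferrireductase that frees iron taken up with transferrin, was the gene of this list with a region higher in LSCs. That region holds a coding start and had a fold of 123 and 82.5 in LSC 1 and LSC 2 and 16.5 and 22.2 in HSC 1 and HSC 2, at percentiles of 71.8 and 71.5 in LSCs and 43.5 and 46.6 in HSCs. Keap1 and Nfe2l2, regulators of the answer to oxidative stress, each hold a region that ranked higher in HSCs. In Keap1, the inhibitor of Nrf2, the region had percentiles of 17.9 and 14.8 in LSC 1 and LSC 2 and 47.7 and 30.5 in HSC 1 and HSC 2. In Nfe2l2, which encodes Nrf2, the wider of 2 regions had percentiles of 12.2 and 30.3 in LSC 1 and LSC 2 and 47.1 and 53.1 in HSC 1 and HSC 2. Txnrd1, a thioredoxin reductase and Nrf2 target, had percentiles of 77.6 and 85.0 in LSC 1 and LSC 2 and 92.4 and 88.6 in HSC 1 and HSC 2, a difference under 20 points. Steap3, Keap1, Nfe2l2 and Txnrd1 were picked from the list after their values were seen.

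Of 30 nuclear pore genes, 6 are hosts with 7 regions, none higher in LSCs and 2 higher in HSCs, in Aaas and Rae1. The host share was 20%, against 11.7% of all coding genes, and the median length 44156 bp, against 17169 bp. Nup214 itself is not a host. Pom121, a membrane nucleoporin that anchors the pore, holds a coding start with 41 CG pairs and had percentiles of 80.9 and 51.3 in LSC 1 and LSC 2 and 82.1 and 46.6 in HSC 1 and HSC 2. Libraries of the same group thus differed here by more than the groups. Nup210 had percentiles of 44.1 and 44.2 in LSC 1 and LSC 2 and 36.9 and 62.5 in HSC 1 and HSC 2.

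Lists of markers of other cell types were counted the same way. Of 20 neutrophil markers 1 is a host, of 15 monocyte and macrophage markers 1, of 18 erythroid markers 2, and of 15 B cell, 18 T and NK cell and 20 neuronal markers none. The erythroid share of 11.1% stands beside 11.7% of all genes. The neutrophil markers have a median length of 9070 bp, and of all genes of 3 to 10 kb 3.62% are hosts. The erythroid, monocyte, B cell and T and NK cell lists have median lengths of 17832, 19614, 14939 and 19174 bp, against 17169 bp for all coding genes. The neuronal genes have a median length of 548496 bp, the longest of the lists, and 2 of 20 have a shared region at a gene end. The neutrophil host is Mmp9, a gelatinase of mature granulocytes. Its region, chr2:164943161-164951542, had a fold of 9.74 and 18.7 in LSC 1 and LSC 2 and 57.5 and 55.2 in HSC 1 and HSC 2, at percentiles of 16.9 and 35.9 in LSCs and 94.8 and 84.0 in HSCs. Its mean difference, LSC minus HSC, was -63.0 points. Both sorts took cells without lineage markers. Of the other neutrophil markers counted, Ltf had 4 and 2 peaks in LSC 1 and LSC 2 and 11 and 13 in HSC 1 and HSC 2, and Cxcr2 had 4 and 2 in LSCs and 4 and 4 in HSCs. S100a9 and Ngp each had 3 and 1 peaks in LSC 1 and LSC 2, Camp had 2 and 1, and all 3 had 1 in each HSC library. S100a8 had 1 peak in each of the 4 libraries. Ltf thus had more peaks in both HSC libraries and the other 5 did not, and the part of mature cells in the Mmp9 value was not tested. The monocyte host Mrc1, the mannose receptor, had percentiles of 30.9 and 38.3 in LSC 1 and LSC 2 and 21.5 and 13.0 in HSC 1 and HSC 2, a difference under 20 points.

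The 3 widest regions lie in Lcp1, Plec and Septin9. Lcp1, the leukocyte actin bundler L-plastin, holds the widest, chr14:75171397-75191925, at 20529 bp. Peaks covered 8067 and 9940 bp of it in LSC 1 and LSC 2 and 18854 and 16972 bp in HSC 1 and HSC 2, and its percentiles were 66.6 and 71.6 in LSCs and 94.3 and 96.0 in HSCs. Plec, the cytolinker plectin, follows at 19986 bp, with percentiles of 62.8 and 64.6 in LSC 1 and LSC 2 and 90.3 and 91.2 in HSC 1 and HSC 2. Both were higher in HSCs. Septin9, at 17753 bp, holds a coding start and did not meet the rule, with percentiles of 92.8 and 98.7 in LSC 1 and LSC 2 and 90.3 and 95.2 in HSC 1 and HSC 2.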

How the data were processed

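Sub1 CUT&Tag was analysed in 4 libraries, LSC and HSC with 2 each, grouped by sample title. The submitters' processing notes name FastQC 0.11.5, Bowtie2 2.2.9, MACS2, ChIPseeker and the mm10 build. The handling of duplicates and any control are not given in the sources used here. Each deposited peak list, 1 per library and not pooled, gives the authors' fold ratio of pileup over background, the authors' −log10 p-value and −log10 q-value, and a deposited score of 10 times −log10 q. Depth is given only as the background implied by the steps between fold values: below a fold of 30, all values were whole reads within 0.02.

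Peaks on main chromosomes were merged at 1 bp overlap. Genes, start windows and miRNAs came from RefSeq GRCm38.p6, which names 21887 protein-coding genes, 17492 of them with a start window. Exons, introns and region sequence were not used here. Medians per library were compared with two-sided exact tests: a permutation of group labels (6 assignments) and a sign change over 4 libraries. The members and gene lists were chosen with earlier results of these data known. One gene list is not reported here. Regions named are the 10 of highest percentile in their weakest library, those of the 6 genes with most regions, the 6 with the widest gap in each direction, the leading 2 hosts of each list, the 3 widest and those at the 1 kb limit. Other genes were named after their values were seen, as was the comparison of regions with and without a start added. The steps were tested on simulated data. Computations ran in Python 3.11.15 with SciPy 1.17.1, pandas 2.3.3, matplotlib 3.10.9 and NumPy 2.4.6.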

Additional observations from a re-analysis of the deposited data

How the results depend on the processing

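The number of shared intragenic regions was 3506, and 1815 with lists cut to equal length by -log10 p, 1401 with 50% overlap of both peaks, and 4088 to 5561 leaving out 1 library each. Regions higher in LSCs numbered 238, with 92 in equal lists, 557 at 10 percentile points and 422 to 570 leaving out 1 library. Their share was 5.07% against 7.96% of all shared regions in equal lists and 15.9% against 18.9% at 10 percentile points. Leaving out 1 library, this share was above that of all shared regions without LSC 1 alone (9.11% against 8.91%). Regions higher in HSCs numbered 457, with 210, 915 and 722 to 871 in the same order. In each of the 11 alternatives for which it was computed, the share higher in HSCs was larger among shared intragenic regions than among all shared regions. In equal lists it was 11.6% against 8.89%. Ranking by -log10 p and keeping autosomes and X alone left the 457 called regions unchanged, so these settings add nothing. The difference in covered length, -196 bp, ranged from -281 to 4.25 bp leaving out 1 library and turned positive without HSC 2. The difference from intergenic regions, 0.0791 points, was -0.066 at 3 kb and -0.802 to -0.401 leaving out 1 library, so its sign is not fixed. The cause was not tested. The difference between groups in the median percentile stayed negative, at -3.42 to -1.75 leaving out 1 library, and was -1.75 (exact p = 0.667) without LSC 1. Ranking by -log10 p gave the order of fold exactly and tests nothing further.

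Regions with a coding start ranked above those with none by 33.1 to 38.9 points, and the gap stayed wider in LSCs by 3.15 to 5.72, under 9 alternatives chosen after seeing the data. Among these, ranking by -log10 p could not differ, and none matched regions for width. The 12 regions named for the widest gaps met the rule in each alternative that held them, and the 6 higher in LSCs were not shared in equal lists. They were picked for wide gaps, and ranking by -log10 p and the 3 kb limit left their values unchanged, so this is description. Replicate numbers are shared across groups, and same-numbered libraries deviated together weakly (r = 0.207 over all shared regions, 0.0739 over shared intragenic regions). These values cannot show whether same-numbered libraries were prepared together. With the replicate block the differences were -3.71 points and -196 bp, each with an exact p = 0.5. With 2 libraries a group no test can pass 0.05. The effect of depth on which weak regions are shared was not tested.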

Other observations

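A group of 4 regions higher in LSCs lies close together on chromosome 2, in the predicted genes Gm4631 and Gm4724, and was chosen after its values were seen. The region in Gm4631 had percentiles of 45.8 and 44.8 in LSC 1 and LSC 2 and 1.60 and 11.5 in HSC 1 and HSC 2. The 3 regions in Gm4724 had percentiles from 45.2 to 53.4 in the LSC libraries and from 6.64 to 20.2 in the HSC libraries. Whether these places are near-identical copies that share reads was not tested.

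Starts in regions called in either direction had fewer CG pairs, and the ETS core less often, than the starts of all shared intragenic regions. The median number of CG pairs was 13 at 79 starts in regions higher in LSCs and 7.5 at 42 starts in regions higher in HSCs, against 17 over all 754. The ETS core CCGGAA was in 16.5% of the windows higher in LSCs and in 0% of those higher in HSCs, against 22.4% over all 754. In the same order, the GC box was in 46.8% and 42.9%, against 56.9%, and the CRE core in 11.4% and 2.38%, against 9.81%. The RUNX core was in 12.7% and 16.7%, against 13.0%, and the E-box in 6.33% and 7.14%, against 7.16%. The TATA letters were in 1.27% and 4.76%, against 5.84%. These counts are small and were not tested.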
